A study of Mus musculus with 11 samples.

Results

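The genes described here encode nuclear proteins of the high mobility group that bind nucleosomes or bend DNA. They are Hmgn1, Hmgn2, Hmgn3 and Hmgn5 of the HMGN family and Hmgb1, Hmgb2 and Hmgb3 of the HMGB family, 7 of the 48440 genes in the count table. The members were chosen by family name, with earlier results of these data in view, and the choice was also based on the differences between genotypes of Hmgn2, which was selected on moving in opposite directions in culture and in tissue. That movement is therefore given below as a description, with no test.

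HMGN proteins bind the nucleosome core, compete with linker histone H1 for chromatin and are found at active promoters and enhancers. HMGB proteins carry a pair of HMG boxes that bend DNA in the minor groove, and they assist in nucleosome remodeling, transcription and repair. Both families are abundant in embryonic tissue and decline in many lineages as cells differentiate, and Hmgb2 is known as a gene that is transcribed with the cell cycle.

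Expression was measured in E14.5 mouse embryos (the day of gestation) of WT and of a conditional knockout (cKO) of Syncrip, an RNA-binding protein of the hnRNP family, in which loxP-flanked exons are removed by Cre. RNA-seq was made from cultured neural progenitor cells (NPCs) of 3 WT and 3 cKO cultures, isolated per the protocol from lateral ventricles and expanded in medium with EGF and bFGF. Single-cell RNA-seq (scRNA-seq) was made from the dorsal telencephalon of 1 WT and 1 cKO embryo of the same pregnant mouse, with Emx1-Cre, which acts in the dorsal forebrain, as the driver of the knockout. The study uses the term cKO for the cross with Emx1-Cre, and it is taken here to hold for the cultures too, although a Nestin-Cre cross was also made. Nothing says whether a culture came from 1 embryo or several, and p-values measure only the spread between these cultures. LACE-seq samples of the series were not analysed here.

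Totals ran from 16962903 to 22708400 counts per culture. Y-linked genes were counted in WT cultures 1 and 2 and in cKO culture 1, with 5903 to 9232 counts, and in the other 3 with at most 1 count. In the tissue, 8214 WT and 9560 cKO cells were kept, with medians of 11705 and 11012.5 unique molecular identifiers (UMIs) per cell, and 22 cell barcodes occurred in both libraries. Y-linked genes had 22062 UMIs in the WT library and 211 in the cKO library, and Xist had 2 and 105339, so that sex and genotype cannot be told apart in the tissue. Levels are given as CPM, the counts of a gene over all counts of its library, scaled to a fixed total. Syncrip itself had 77.9, 79.8 and 79.9 CPM in WT cultures against 90.3, 88.7 and 81.5 CPM in cKO cultures, and edgeR gave a log2 fold change of 0.13 with an adjusted p of 0.18. In apical progenitors of the tissue its level was 315 CPM (WT) against 324 CPM (cKO), a log2 ratio of 0.04 (-0.02 to 0.10), and in ganglionic eminence cells 307 against 266 CPM, a ratio of -0.21 (-0.28 to -0.14). Counts over the whole gene, or UMIs from its 3′ end, do not by themselves check the removal of the flanked exons. The study itself reports their deletion in RNA-seq tracks of E14.5 cKO neurospheres, and a check of the knockout on protein. Of 10 markers of apical progenitors, 9 passed the count filter in the cultures, 3 of them called higher and 4 lower in cKO. These 9 summed to 6870 to 8330 CPM in WT and 7100 to 7940 CPM in cKO cultures. The other one, Sox2, was listed at 0 in all 6, as were all 436 genes, predicted ones aside, that the table places inside a gene of the same strand and all 740 inside a gene of the other strand, against 19.9% of those inside no other gene. Of 6 tested markers of migrating neurons, 0 were higher and 5 lower in the cKO cultures, with sums of 331 to 344 CPM in WT and 217 to 231 CPM in cKO, whereas markers of immature neurons summed to 425 to 455 CPM in WT and 523 to 541 CPM in cKO (3 higher and 3 lower of 8 tested). Markers of ganglionic eminence cells summed to 64.4 to 72.2 CPM and 54.4 to 60.4 CPM (0 higher and 3 lower of 6). The part of these cell types in the results was not tested. Microglial markers summed to at most 2.5 CPM, and no marker of red blood cells passed the filter.

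The upstream sequences of Hmgb2 and Hmgn2 are shown because Hmgb2 had the largest range over cell cycle phases and Hmgn2 the largest difference between embryos in apical progenitors among the members. Promoters were taken from RefSeq on GRCm38.p6, where 6 of the 7 members have an entry, all but Hmgn3. The 250 bases before the start site are printed 5′ to 3′ on the strand of the gene, in lower case. Capitals mark CCAAT, the box bound by NF-Y, and TTTGAA, the cell cycle homology region, on either strand.
Hmgb2 (chr8:57511593-57511842, plus strand): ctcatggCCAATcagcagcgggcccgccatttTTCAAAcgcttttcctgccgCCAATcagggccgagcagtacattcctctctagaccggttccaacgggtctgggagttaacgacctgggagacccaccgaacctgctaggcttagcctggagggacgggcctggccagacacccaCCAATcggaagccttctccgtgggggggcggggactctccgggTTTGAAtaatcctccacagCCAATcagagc
Hmgn2 (chr4:133967992-133968241, minus strand): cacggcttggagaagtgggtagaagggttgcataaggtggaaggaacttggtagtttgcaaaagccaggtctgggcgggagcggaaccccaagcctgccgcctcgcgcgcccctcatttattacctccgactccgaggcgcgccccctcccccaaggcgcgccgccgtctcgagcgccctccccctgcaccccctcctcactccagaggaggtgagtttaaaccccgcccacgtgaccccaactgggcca
CCAAT or its reverse complement ATTGG was present in 33.8% of the 32851 promoters of the table, and TTTGAA or TTCAAA in 16.0%. The Hmgb2 window held CCAAT 4 times and TTTGAA 2 times. CCAAT was found 4 or more times in 0.84% of all promoters, and TTTGAA 2 or more times in 1.81%. The nearest TTTGAA lay 25 to 30 bases before the RefSeq start site of Hmgb2 and the nearest CCAAT 7 to 11 bases before it. The Hmgb2 span used for the counts starts further downstream, at chr8:57511907, and these distances do not hold for that start. The Hmgn2 window held none of these letters, and lies inside the span that the count table gives for the gene. The Hmgb3 window held CCAAT 3 times and TTTGAA 1 time. The windows of Hmgn1 and Hmgn5 held CCAAT 2 times each, that of 1 Hmgb1 start site held it 3 times, and that of the other Hmgb1 start site did not hold it. Both Hmgb1 windows also lie inside the span that the count table gives for that gene. TTTGAA and its second form TTCGAA (1.34% of all promoters), and the E2F-type strings TTTGGCGC (0.417%) and TTTCCCGC (0.895%), were searched in the same way, and apart from TTTGAA in Hmgb2 and Hmgb3 none of them was in a member's window. These matches describe letters in a short window and show nothing about binding.

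The first question was how the members differed between WT and cKO cultures. Levels are CPM after TMM scaling, compared by edgeR's quasi-likelihood test with Benjamini-Hochberg adjustment over 14432 genes. A fold change from a bulk culture cannot tell a change in the number of cells of a type from a change in RNA per cell. Hmgb2, Hmgn3, Hmgn1 and Hmgn5 were called higher in the cKO cultures, Hmgb1 and Hmgb3 did not pass the threshold, and Hmgn2 is described without a test. Calls were frequent in this comparison: 39.5% of all genes tested passed an adjusted p of 0.05, 19.7% as higher and 19.8% as lower, and in 50.4% the cultures of both genotypes did not overlap. Of the members apart from Hmgn2, 0 were past the threshold as lower. In 5 of all 7 members, Hmgn2 among them, the cultures did not overlap. Nothing is read from these counts, since the choice of members used this contrast, and the adjusted p values of the other members describe these cultures and support nothing further.

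**Figure D1:**
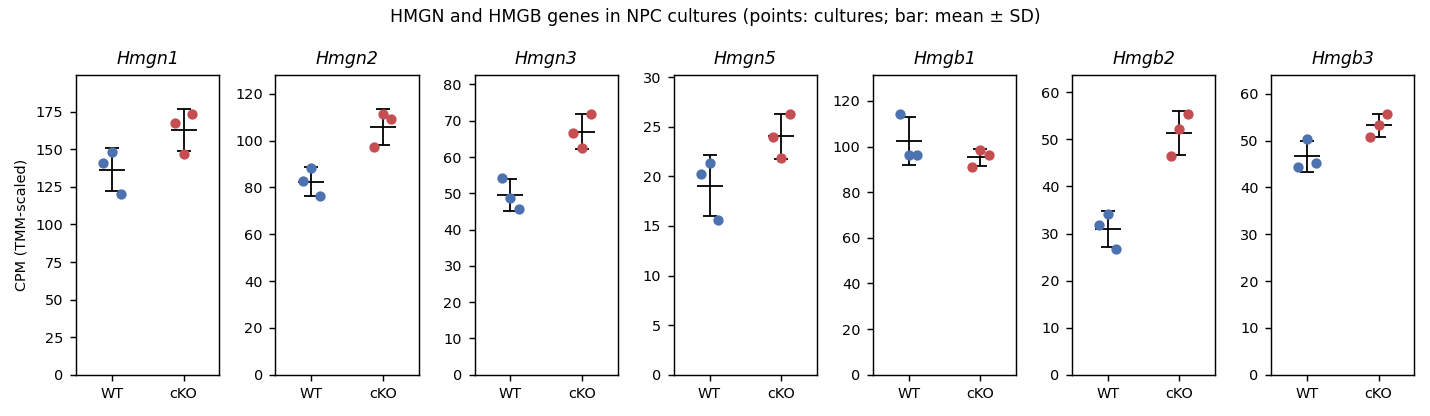
Level of each member in CPM (TMM-scaled, axis from 0) in the 3 WT (blue) and 3 cKO (red) NPC cultures, with the mean and SD. Hmgb2 lay between 26.7 and 34.1 CPM in WT and between 46.4 and 55.4 CPM in cKO cultures, whereas the Hmgb1 points of the genotypes overlap.

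Among the HMGB genes, Hmgb2 (chr8:57511907-57515999 on mm10, as for all gene positions) had 31.9, 34.1 and 26.7 CPM in WT cultures against 46.4, 52.3 and 55.4 CPM in cKO cultures. All cKO cultures lay above all WT cultures. The means were 30.9 ± 3.8 (WT) and 51.4 ± 4.59 CPM (cKO) (SD, n = 3), and edgeR gave a log2 fold change of 0.74 ± 0.11 (SE) with an adjusted p of 0.000165. Hmgb1 (chr5:149046702-149184489), the most studied of the family and also a danger signal when it leaves the cell, had 114, 96.5 and 96.2 CPM in WT and 91.2, 98.7 and 96.1 CPM in cKO cultures. The genotypes overlapped, and the log2 fold change was -0.10 ± 0.08 (SE) with an adjusted p of 0.346 in edgeR. Hmgb3 (chrX:71555918-71560676), known from blood stem cells, had 44.3, 50.4 and 45.2 CPM in WT and 50.8, 53.2 and 55.7 CPM in cKO cultures. These values did not overlap, by a margin smaller than the spread within either genotype, and the log2 fold change of 0.19 ± 0.09 (SE) had an adjusted p of 0.113 in edgeR.

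Of the HMGN genes, Hmgn3 (chr9:83109948-83146685) had 54.4, 48.6 and 45.7 CPM in WT and 66.7, 62.4 and 71.9 CPM in cKO cultures. The genotypes did not overlap, and edgeR gave a log2 fold change of 0.44 ± 0.10 (SE) with an adjusted p of 0.00261. In Hmgn2 (chr4:133964738-133968650), whose movement was part of the choice, the cultures had 82.6, 88.5 and 76.5 CPM (WT) against 97.2, 111.5 and 109.3 CPM (cKO). The means were 82.5 ± 6.02 (WT) and 106 ± 7.69 CPM (cKO) (SD, n = 3), and the cKO cultures were all higher, by a log2 fold change of 0.36 ± 0.08 (SE). Hmgn1 (chr16:96120618-96127729), a gene of the Down syndrome region in human, had 141, 148 and 120.3 CPM in WT and 168, 147 and 174 CPM in cKO cultures, so that 1 cKO culture lay below the highest WT culture. Its log2 fold change of 0.26 ± 0.09 (SE) had an adjusted p of 0.0400 in edgeR, which rose to 0.152 without WT culture 3, 0.143 without cKO culture 1 and 0.175 without cKO culture 3. Hmgn5 (chrX:109004534-109013404), a family member with a long acidic tail, had 20.3, 21.3 and 15.6 CPM in WT and 23.9, 21.8 and 26.3 CPM in cKO cultures. Its cultures did not overlap, but 21.3 and 21.8 CPM are close, and the log2 fold change of 0.34 ± 0.13 (SE) had an adjusted p of 0.0483 in edgeR. Leaving out WT culture 2, WT culture 3, cKO culture 1 or cKO culture 3 took that to 0.0501, 0.19, 0.112 and 0.196, and RLE scaling in edgeR and DESeq2 gave adjusted p values of 0.0503 and 0.0510. With the sex of the culture, read from the Y-linked counts, as a term in the fit, the log2 fold changes were 0.75 for Hmgb2, 0.46 for Hmgn3, 0.36 for Hmgn2, 0.41 for Hmgn5 and 0.32 for Hmgn1.

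Many mouse HMG genes have processed pseudogenes, copies of the spliced transcript that can take up reads of the gene. A search of the principal transcripts against GRCm38 with BLAST (at least 90% identity over at least 100 bases) found 126 other loci for Hmgb1, 34 for Hmgb2, 25 for Hmgn2, 23 for Hmgb3, 9 for Hmgn1, 2 for Hmgn5 and none for Hmgn3. For Hmgn2 they cover 93.8% of the transcript, and 3 genes listed at such loci had 781 counts in all, 6.91% of the gene's own. For Hmgb1, 19 listed copies had 2364 counts, 19.7% of the gene's own. The counts at the Hmgb1 copies were 345, 473 and 608 in WT and 245, 402 and 291 in cKO cultures. With the copies added to their gene, an alternative chosen after seeing the data, the log2 fold change was 0.32 for Hmgn2, -0.17 for Hmgb1 (adjusted p = 0.109 in edgeR) and 0.34 for Hmgn5. Such copies also cover 90.1% of the Hmgb3 transcript, 81.5% of Hmgb1, 76.5% of Hmgn5, 55.4% of Hmgn1 and 47.5% of Hmgb2. Reads that match several loci may be in neither count, so that the counts at copies do not bound what is missing, and the levels of these 6 members are uncertain. None of the exon bases of the principal transcript lay in another listed gene for 6 members, whereas 29.0% did so for Hmgn3, where reads could have been left out of the count.

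Proteins that work beside the members were taken as fixed lists, chosen with results of these data known. Of 16 tested genes with an HMG box outside the family, among them the chromatin remodeling subunits Smarce1 and Pbrm1 and the FACT subunit Ssrp1, 0 were called higher and 0 lower, with a median log2 fold change of 0.01 against 0.002 for all genes. At an unadjusted p below 0.05, 2 of them differed. Linker histones, the nucleosome proteins with which HMGN proteins compete, had 5 called higher and 0 lower of 6 tested, with a median of 0.59. Hist1h1c rose from 44.5 ± 2.41 to 77.1 ± 3.62 CPM (SD, n = 3), a log2 fold change of 0.79 ± 0.09 (SE, adjusted p = 9.93e-06 in edgeR). H1f0 and H1fx rose by 0.24 and 0.38 on the log2 scale, Hist1h1d and Hist1h1b by 2.15 each from under 1 CPM, and Hist1h1e had -0.22 ± 0.38 (SE, adjusted p = 0.685 in edgeR). The histone genes of the Hist1 cluster resemble each other and their transcripts mostly lack poly-A tails, so that their counts are uncertain. Of the 2 HMGA genes tested, AT-hook proteins of the same superfamily, Hmga2 rose from 0.939 ± 0.158 to 6.36 ± 0.666 CPM (SD, n = 3), a log2 fold change of 2.74 (adjusted p = 1.06e-06 in edgeR), and Hmga1 had -0.13 (adjusted p = 0.396).

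Histone chaperones had 6 called higher and 1 lower of 16 tested, with a median log2 fold change of 0.10. The largest rises were in Chaf1b (0.81) and Asf1b (0.70), which deposit histones behind the replication fork, and in Chaf1a (0.49). The fall was in Anp32a (-0.39 ± 0.07, SE, adjusted p = 0.000655 in edgeR), which is also a partner of HMGB2 in the SET complex. In that complex, Set had 0.05 (adjusted p = 0.693 in edgeR) and Apex1 -0.36 (adjusted p = 0.207), so that 0 were called higher and 1 lower of 3 tested. The receptors of extracellular HMGB1 were scarce, with Ager at 1.85 and 2.54 CPM and Tlr2 at 1.28 and 0.729 CPM in WT and cKO cultures, and neither passed (adjusted p = 0.244 and 0.0681 in edgeR).

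Transcripts of cycling cells also differed between the cultures. Of the G2/M genes that Seurat uses for phase calls, Hmgb2 left out, 42 were called higher and 3 lower of 51 tested, with a median log2 fold change of 0.96, and of the S phase genes 20 higher and 0 lower of 42 tested, with a median of 0.35. The summed G2/M list had 2736, 2515 and 2471 CPM (WT) against 3011, 3273 and 3352 CPM (cKO). All cKO cultures lay above all WT cultures. The part of cell cycle composition in the fold changes of the members was not tested.

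In the tissue, cells were clustered without the members among the genes used, and the 27 clusters were named from marker lists. Levels there are CPM of UMIs summed over the cells of a class, with exact Poisson 95% intervals in parentheses. Since each genotype is 1 embryo, the spread among embryos is unknown, no test was run, and all intervals cover counting error only. The classes like apical progenitors (962 WT and 1319 cKO cells), intermediate progenitors (679 and 722), migrating neurons (2036 and 2249), immature neurons (2337 and 2435), ganglionic eminence (GE) cells (1189 and 1642), Cajal-Retzius cells (63 and 111), a mix of pericytes and meningeal fibroblasts (116 and 108) and red blood cells (54 and 55) had at least 50 cells in each library. The mix is 1 cluster led by Col3a1, Dcn, Vtn and Rgs5, which at a resolution of 1.2 split into pericytes (103 WT and 82 cKO cells) and fibroblasts (13 and 26 cells), so that its makeup differed between libraries. A further 723 WT and 837 cKO cells stayed without a name. Although the label gives dorsal telencephalon, GE-like cells were 1189 of 8214 cells in WT and 1642 of 9560 cells in cKO.

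Of the 7 members, 6 were highest in apical progenitors in both libraries, and Hmgn5 was highest in intermediate progenitors. In the WT library Hmgn2 had 1197 CPM (1179 to 1217) in apical progenitors, 1054 CPM in intermediate progenitors, 739 CPM in GE cells, 408 CPM in migrating neurons, 329.5 CPM in pericytes and fibroblasts, 235 CPM in Cajal-Retzius cells, 213 CPM in immature neurons and 75.7 CPM in red blood cells. In 6 of these 7 steps the intervals of neighbors were apart, and Cajal-Retzius cells and immature neurons could not be ordered. Its highest level was 15.8 times its lowest in WT and 18.8 times in cKO. The lowest class, red blood cells, had only 17 WT and 11 cKO UMIs of Hmgn2, and in cells thinned to 5000 UMIs the folds were 22.5 and 38.4.

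Hmgb2 had the steepest range among classes, 53.8-fold in WT and 41.4-fold in cKO. Its WT levels were 2638 CPM in apical progenitors, 1353 CPM in intermediate progenitors, 845 CPM in GE cells and 641 CPM in pericytes and fibroblasts, and then 136 CPM in migrating neurons, 89.1 CPM in red blood cells, 57.0 CPM in immature neurons and 49.0 CPM in Cajal-Retzius cells. In 4 of its 7 steps the intervals were apart, and neighbors among the last 4 classes could not be ordered. The lowest WT class had only 43 UMIs of Hmgb2, and without called doublets the fold over classes was 81.9 in WT and 46.6 in cKO. Hmgb1 had 2812 CPM in apical progenitors and stayed at 1117 CPM in migrating and 1313 CPM in immature neurons. Hmgn1 had 848 CPM in apical progenitors and 410 CPM in immature neurons, and Hmgb3 519 and 162 CPM.

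Hmgn3 was at 411 CPM in WT apical progenitors, and every other class was at 145 CPM or less, with 112 CPM in intermediate progenitors and 61.4 CPM in GE cells. In 3 of its 7 steps the intervals were apart. Hmgn5 had 202 CPM (193 to 212) in intermediate and 185 CPM (178 to 193) in apical progenitors of the WT library, and 227 CPM and 179 CPM in the cKO library. It then fell to 72.8 CPM in migrating and 27.6 CPM in immature neurons of the WT library. At a clustering resolution of 0.4, Hmgn5 was highest in apical progenitors in the WT library.

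**Figure D2:**
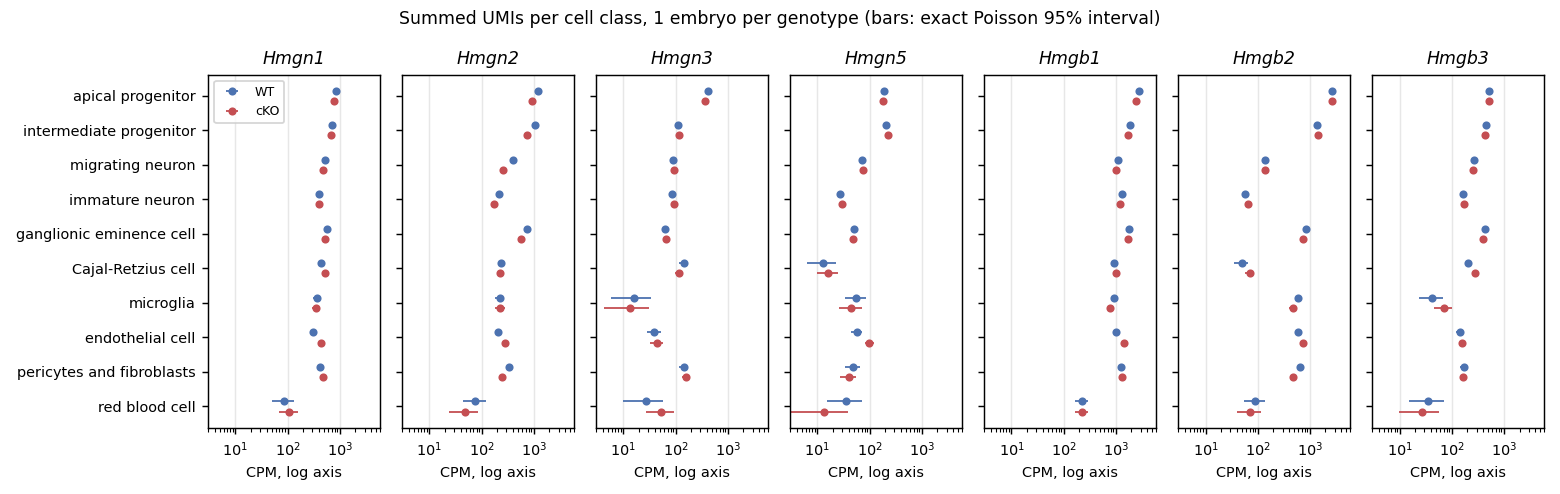
Level of each member in 10 cell classes of the WT (blue) and cKO (red) embryo, in CPM of UMIs on a log axis, with exact Poisson 95% intervals. Hmgb2 spans from 2638 CPM in apical progenitors to 49.0 CPM in Cajal-Retzius cells of the WT library, and Hmgb1 stays above 900 CPM in all classes but red blood cells and cKO microglia.

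The genes most like each member over these 8 classes were found by Pearson correlation of log2(CPM + 1) in the WT library, among 9306 genes with at least 1000 UMIs. Classes share a library and differ in depth and cycling, so that the coefficients are descriptions. Hmgb2 was most like Smc4 (r = 0.995, cKO 0.990), a condensin subunit, Hist1h4c (0.990, cKO 0.971), a replication-dependent histone, and Lockd (0.989, cKO 0.935). Hmgn2 was most like Anp32e (0.985, cKO 0.982), a chaperone of histone H2A.Z, Ppwd1 and Hnrnpm, and Hmgn1 most like Ppp1r8 (0.999, cKO 0.915), U2af2 and Orc2. Hmgn3 was most like Gart (0.987, cKO 0.836), Bckdhb and Mettl1, and Hmgn5 most like Tgif2 (0.982, cKO 0.934), Gli2 and Jam3. For Hmgb1 these were Exosc2 (0.994, cKO 0.803), Hdgf and Psmc3ip, and for Hmgb3 Tdp2 (0.990, cKO 0.956), Slc25a26 and Nmral1. Between members, Hmgn1 and Hmgb3 were the most alike pair in WT (0.973, cKO 0.976) and Hmgn3 and Hmgn5 the least (0.392, cKO 0.585), each over 8 classes.

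The comparison of the embryos asks how the members differed between WT and cKO within a class. Hmgn2 had a lower level in all 5 large classes of the cKO library. In apical progenitors it fell between libraries from 1197 CPM (WT) to 913 CPM (cKO), a log2 ratio of -0.39 (-0.42 to -0.36, exact conditional 95% interval). The ratio was -0.53 (-0.57 to -0.48) in intermediate progenitors, -0.68 (-0.73 to -0.64) in migrating neurons, -0.28 (-0.33 to -0.23) in immature neurons and -0.35 (-0.40 to -0.31) in GE cells, which arise in the ventral telencephalon, outside the territory of Emx1. It was -0.05 (-0.32 to 0.21) in Cajal-Retzius cells, -0.39 (-0.67 to -0.12) in the mix of pericytes and fibroblasts and 0.43 (0.18 to 0.68) in the 24 WT and 33 cKO endothelial cells, whose median depth was 39431 and 22067 UMIs. Of the migrating neuron clusters, 1 held 141 WT and 506 cKO cells, and without it, a choice made after seeing the data, the ratio in that class was -0.61. Over the 27 clusters the interval lay below 0 in 20, above 0 in 1 and held 0 in 6. Clusters of the same 1 WT and 1 cKO embryo are not replicates, and the width of an interval depends on the UMIs.

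Hmgb1 was also lower in the cKO library, by -0.21 (-0.23 to -0.19) in apical progenitors, where its levels were 2812 and 2424 CPM, -0.13 (-0.17 to -0.10) in intermediate progenitors, -0.16 (-0.19 to -0.14) in migrating neurons, -0.12 (-0.14 to -0.10) in immature neurons and -0.08 (-0.11 to -0.06) in GE cells. Its interval lay below 0 in 16 of 27 clusters and above 0 in 1. Hmgn1 had -0.12 (-0.16 to -0.09) in apical progenitors and -0.08 (-0.13 to -0.03) in GE cells. Hmgn3 had -0.19 (-0.24 to -0.14) in apical progenitors, its class of highest level, and 0.10 (0.02 to 0.19) in migrating neurons, 0.12 (0.05 to 0.19) in immature neurons and 0.12 (-0.03 to 0.26) in GE cells.

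In apical progenitors the intervals of the remaining members held 0. Hmgb2 had 0.01 (-0.01 to 0.03) there, and 0.08 in cells thinned to the same depth, with 0.11 (0.08 to 0.14) in intermediate progenitors, 0.17 (0.09 to 0.26) in immature neurons and -0.16 (-0.20 to -0.12) in GE cells. Over all cells its ratio was 0.25 (0.23 to 0.26), which was above that of each of the 5 large classes, and apical progenitors made up 11.7% of cells in WT and 13.8% in cKO. Hmgb3 had 0.01 (-0.03 to 0.06) in apical progenitors and -0.11 (-0.17 to -0.05) in GE cells. Hmgn5 had -0.05 (-0.13 to 0.03) in apical and 0.16 (0.08 to 0.25) in intermediate progenitors.

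**Figure D3:**
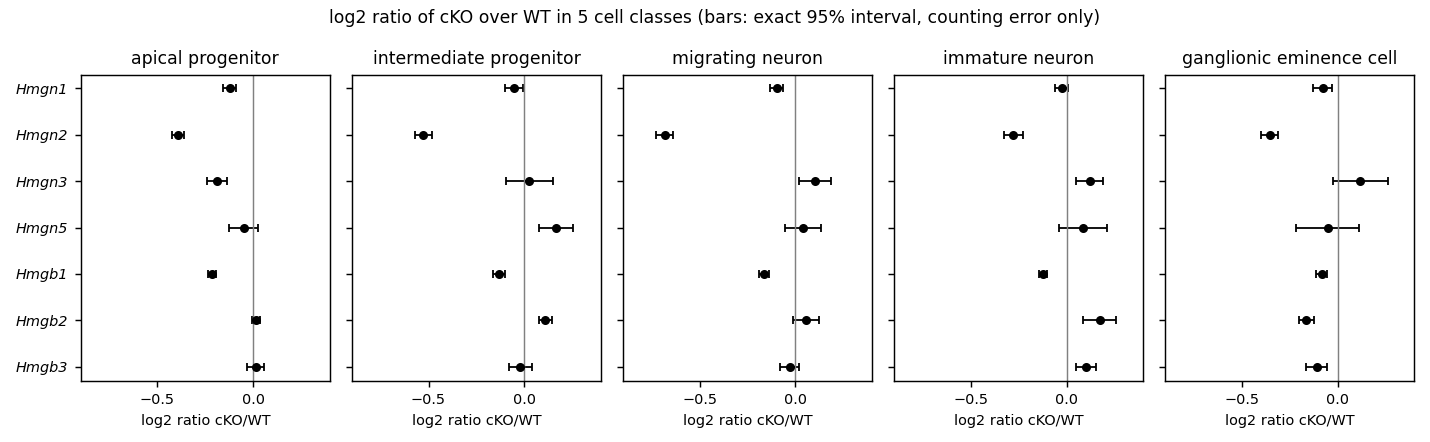
The log2 ratio of cKO over WT for each member in 5 cell classes of the 2 embryos, with exact 95% intervals for counting error. Hmgn2 lies left of 0 in every panel, from -0.28 in immature neurons to -0.68 in migrating neurons, and Hmgb1 lies left of 0 by a smaller amount.

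Read against all genes, 10.3% of those with at least 200 UMIs in apical progenitors were lower in cKO by at least 0.2 on the log2 scale and 12.8% were higher, and in GE cells 7.7% were lower and 10.8% higher. Of the members, 2 of 7 were lower by that much in apical progenitors, Hmgn2 and Hmgb1, and 1 of 7 in GE cells, Hmgn2, and in neither class was a member higher by that much. Nothing is read from these counts. The median member had -0.12 in apical progenitors and -0.08 in GE cells, and the median of all genes was -0.01 and 0.01. Hmgn2, chosen for its fall in the tissue, is in the first median, so that nothing is read from the medians either. The X-linked genes, of which Hmgn5 and Hmgb3 are 2, had a median of 0.01 in apical progenitors over 365 genes.

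The linker histones, of which 5 were called higher in the cultures, had 0 of 7 higher and 3 of 7 lower by at least 0.2 in apical progenitors, with a median of -0.16, and 0 higher and 5 lower in GE cells, with a median of -0.37. Hist1h1c had a log2 ratio of -0.50 (-0.61 to -0.39) in apical progenitors, opposite in sign to its fold change in the cultures, Hist1h1a had -0.27, Hist1h1e -0.21, Hist1h1d -0.16, Hist1h1b -0.09, H1fx -0.02 and H1f0 0.00. In GE cells Hist1h1b had -0.57, Hist1h1e -0.56, Hist1h1a -0.46, Hist1h1c -0.37, Hist1h1d -0.35, H1f0 -0.14 and H1fx -0.12. The HMGA genes went apart in apical progenitors, with Hmga2 at 0.60 (0.49 to 0.71) and Hmga1 at -0.23 (-0.49 to 0.04), and in GE cells Hmga1 had -0.51 (-0.84 to -0.19) and Hmga2 had under 200 UMIs. Of the SET complex, Set had -0.13, Anp32a -0.12, Apex1 -0.04 and Nme1 0.06 in apical progenitors, and 0.05, 0.03, -0.15 and 0.04 in GE cells, so that 0 of 4 differed by at least 0.2 in either class. Among the histone chaperones, Asf1b had 0.43 (0.22 to 0.65), Chaf1b 0.35 (0.19 to 0.51) and Chaf1a 0.28 (0.10 to 0.46) in apical progenitors, and these 3 of 17 were higher by at least 0.2 and 0 were lower. In GE cells 1 was higher, Daxx with 0.27 (0.02 to 0.53), and 1 lower, Asf1b with -0.27 (-0.66 to 0.13). That interval of Asf1b, from 104 WT and 115 cKO UMIs, held 0. None of the receptors of extracellular HMGB1 reached 200 UMIs there, and of the HMG-box relatives 1 of 16 was higher and 1 lower, Tox2 and Pbrm1. In GE cells 3 of these 16 were higher, Hmg20b, Hmgxb3 and Tox2, and 2 lower, Tox and Tox3. Genes of both lists are named here after their values were seen.

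**Figure D4:**
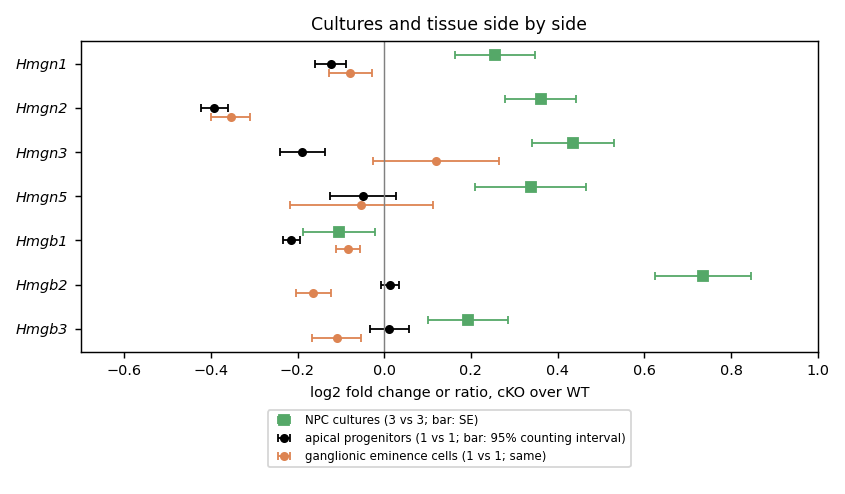
The log2 fold change of each member in NPC cultures (squares, with SE, 3 against 3 cultures) beside its log2 ratio in apical progenitors and GE cells (circles, with 95% counting intervals, 1 against 1 embryo). Hmgn2 is at 0.36 in the cultures and at -0.39 and -0.35 in the tissue, and Hmgb2 at 0.74, 0.01 and -0.16.

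Side by side, Hmgn2 was higher in the cKO cultures (0.36) and lower in cKO apical progenitors (-0.39), which is the pattern for which it was chosen. Hmgn3 had 0.44 in the cultures and -0.19 in apical progenitors, and Hmgn1 0.26 and -0.12. For Hmgb2 the values were 0.74 and 0.01, and for Hmgb1 -0.10 and -0.21. The difference between culture and tissue was not tested, since the embryos have no replicates and the assays differ in the part of the transcript they read.

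Phases were called from Seurat's gene lists for S and for G2/M, without Hmgb2, which belongs to the latter. In WT apical progenitors Hmgb2 had 401 CPM in G1, 1599 CPM in S and 3983 CPM in G2/M cells, and in cKO apical progenitors 464, 1604 and 4030 CPM. The G2/M level was thus 9.94 times (9.27 to 10.7) the G1 level in WT and 8.68 times (8.15 to 9.26) in cKO. For the other members the same fold lay between 1.18 (Hmgn5, WT) and 1.97 (Hmgn2, cKO). Hmgn2 had 844, 989 and 1438 CPM in G1, S and G2/M cells of the WT and 577, 732 and 1137 CPM of the cKO library, with a fold of 1.70 (1.62 to 1.79) and 1.97 (1.85 to 2.09). Hmgn5 was lowest in S, with 149.6 (WT) and 145 CPM (cKO), against 177 and 168 CPM in G1.

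In GE cells this fold was larger than in apical progenitors for all 7 members, in both libraries. The G2/M level of Hmgb2 was 43.6 times its G1 level in WT and 41.7 times in cKO GE cells, that of Hmgn2 7.47 times in both, that of Hmgn5 6.2 and 7.48 times, and that of the other 4 members 1.62 to 2.74 times. In intermediate progenitors it was 16.7 and 15.8 for Hmgb2 and 3.44 and 4.37 for Hmgn2. The G1 call takes in cells that have left the cycle, and their share was not measured.

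**Figure D5:**
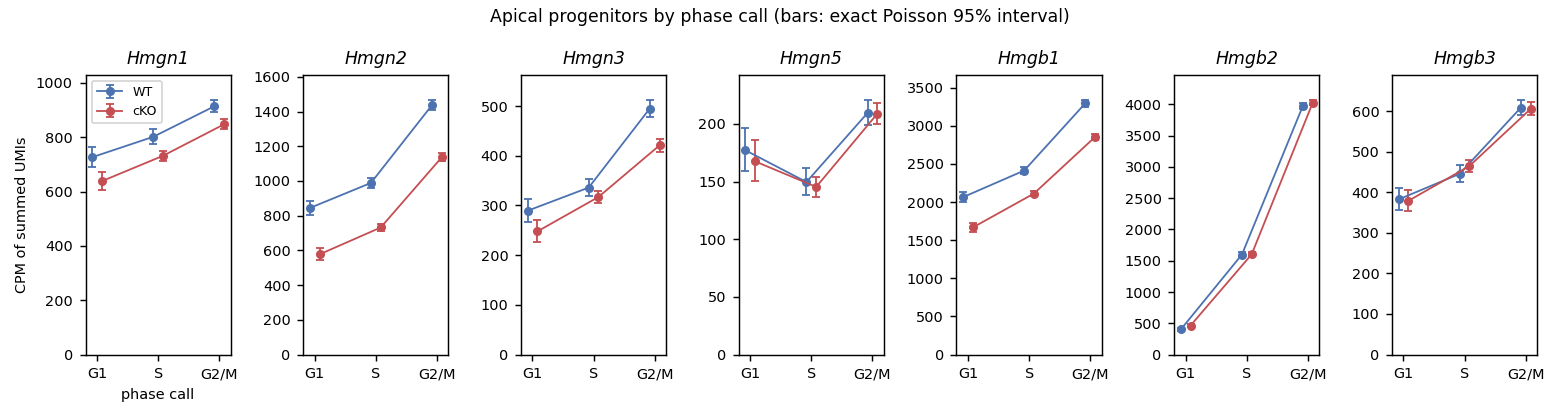
Level of each member in apical progenitors called G1, S or G2/M, in CPM of UMIs (axis from 0) for the WT (blue) and cKO (red) embryo, with exact Poisson 95% intervals. Hmgb2 climbs from 401 to 3983 CPM in WT and lies close to cKO in S and G2/M, and the Hmgn2 and Hmgb1 lines of cKO run below those of WT in every phase.

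The genotypes differed in phase shares, with 33.6% of WT and 44.5% of cKO apical progenitors called S, 49.2% and 42.5% called G2/M and 17.3% and 13.0% called G1. Within phases Hmgn2 was lower in cKO apical progenitors by a log2 ratio of -0.55 (-0.65 to -0.44) in G1, -0.43 (-0.49 to -0.38) in S and -0.34 (-0.38 to -0.30) in G2/M cells. In intermediate progenitors the ratios were -0.83, -0.38 and -0.48, and in GE cells -0.30, -0.62 and -0.30. The S value in GE cells was -0.88 among cells thinned to 5000 UMIs, whose phases were called anew. Hmgb1 had -0.31 (-0.37 to -0.24), -0.19 (-0.23 to -0.16) and -0.21 (-0.23 to -0.18) in G1, S and G2/M apical progenitors. Hmgb2 had 0.21 (0.08 to 0.35) in G1 and 0.00 (-0.04 to 0.05) in S cells, and 0.02 (-0.01 to 0.04) in G2/M cells. In the same order of phases, Hmgn3 had -0.22 (-0.40 to -0.05), -0.08 (-0.18 to 0.01) and -0.23 (-0.30 to -0.17). Hmgn1 had -0.19 (-0.29 to -0.08), -0.13 (-0.19 to -0.07) and -0.11 (-0.16 to -0.06). The intervals of Hmgn5 and Hmgb3 held 0 in each phase.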

How the data were processed

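Bulk RNA-seq of 6 NPC cultures and scRNA-seq of 2 embryos were used. The authors aligned bulk reads to mm10 with HISAT2 and deposited raw counts for 48440 genes. How reads were assigned to genes, with which annotation and strand setting, is not given in the sources used here. UMI counts per gene and cell were made by the authors with Cell Ranger 7.0.0 and deposited as filtered matrices. No column of per-sample values was left unused (0). The cultures had 16962903 to 22708400 counts.

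The members and the gene lists were chosen with earlier results of these data known. Cultures were compared with edgeR 4.0.16 (R 4.3.3; robust quasi-likelihood test, TMM, filterByExpr, an adjusted p of 0.05 as threshold). Standard errors were derived from the F statistic. The test was checked on simulated counts.

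Cells in which 200 genes or more were detected and mitochondrial UMIs did not exceed 10% were clustered with Seurat 5.3.0 (2000 variable genes without the members, 30 components, resolution 0.8). A cluster was named where at least 3 markers were raised at least 1.5-fold and their mean standardized expression was at least 0.5, limits set after the clusters were seen. Doublets called by Scrublet (298 WT, 451 cKO) were kept and removed as an alternative. Ratios carry exact 95% intervals. Copies were sought with BLAST 2.17.0.

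All 7 members were named in each comparison, except in phase results where some were given as a range or left out. Also named were all tested genes of a list of 12 or fewer, the 3 largest rises and falls past the threshold in a longer list, and the 3 genes most like each member. The alternatives were other scalings, filters and tests, a replicate block, sex as a covariate, leaving out each culture, other clustering resolutions, doublet removal, thinning to 5000 UMIs, and phase lists with Hmgb2. Adding the counts of copies and leaving out the apical progenitor cluster of lowest depth or an uneven migrating neuron cluster were chosen after seeing the data. Some genes and results are not reported here.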

Additional observations from a re-analysis of the deposited data

Results flagged for a closer look

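Hmgn2 was higher in the 3 cKO cultures than in the 3 WT cultures, by 0.36 on the log2 scale, and lower in apical progenitors of the cKO embryo than of the WT embryo, by a log2 ratio of -0.392. The signs were thus opposite in culture and in tissue, where the contrast of genotypes is also one of sexes between 1 embryo each. This difference was not tested, and Hmgn2 was chosen for it.

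Gm10282, a near-identical copy of Hmgn2 at chr8:72304118-72305276 whose UMIs no comparison above uses, had 164 UMIs in WT and 340 UMIs in cKO apical progenitors. These are 12.7 and 17.9 CPM, a log2 ratio of 0.49 (0.22 to 0.77), and 1.54% of the Hmgn2 UMIs in these cells. In GE cells the ratio was 0.07 (-0.31 to 0.46). In the cultures it holds nearly all counts at copies of Hmgn2 (129, 160 and 137 in WT and 90, 85 and 139 in cKO) that were added in the alternative above. There Gm10282 had 5.81, 8.91 and 6.11 CPM in WT and 4.41, 4.95 and 6.70 CPM in cKO, a log2 fold change of -0.36 with an adjusted p of 0.193 in edgeR.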

How the results depend on the processing

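In the cultures, 5 members were called higher (Hmgn2 counted), and 4 with RLE scaling or DESeq2. There were 3 to 5 when 1 culture was left out, with 3 each without WT culture 3, cKO culture 1 or cKO culture 3. The choice of members used this contrast, and that of Hmgn2 its movement, so that these counts are descriptions. The calls lost were those of Hmgn1 and Hmgn5, and the cause was not tested. No member was called lower under any setting. Genes called higher numbered 2843 in all and 2068 to 3070 with 1 culture left out, and those called lower 2858 and 2040 to 3275. Same-numbered cultures deviated with correlations of 0.264, -0.0466 and 0.116, and the other pairs with -0.344 to 0.286. With 3 cultures per genotype, these values cannot decide whether the numbers pair the cultures. With a replicate block Hmgb2, Hmgn3, Hmgn1 and Hmgn5 were called higher, and of all genes 3189 were called higher and 3216 lower. In the tissue Hmgn2 was lower in cKO in 33 of 33 values over 5 large classes and all settings, from -0.69 to -0.24. All of these values reuse cells of the same 1 WT and 1 cKO embryo, and Hmgn2 was chosen for this fall. Nothing is read from their agreement. In apical progenitors the Hmgn2 ratio was -0.35 at resolution 0.4. The ratio of Hmgn5 in endothelial cells reversed to -0.52, and that of Hmgn1 in the mix of pericytes and fibroblasts to -0.25, in cells thinned to 5000 UMIs. The G2/M level of Hmgb2 was 12 (WT) and 10.6 (cKO) times its G1 level with Hmgb2 among the phase genes, and 10.9 and 9.56 times after thinning. Of the G2/M to G1 folds of all members under these settings, 18 stayed within their interval and 10 moved. Of the tissue values under the alternatives, 302 stayed within their interval and 37 moved beyond it with the same sign or from an interval that held 0. Counting intervals leave out the spread between embryos, which the depth cannot replace.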

Other observations

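In the 24 WT and 33 cKO endothelial cells, 5 members had intervals above 0. Their log2 ratios were 0.47 for Hmgn1, 0.43 for Hmgn2, 0.79 for Hmgn5, 0.55 for Hmgb1 and 0.32 for Hmgb2. The share of all genes with such intervals was not determined in this class, so that nothing is read from the count. After thinning to 5000 UMIs, Hmgn1 had 0.24, Hmgn2 0.18 and Hmgn5 -0.52. The mean UMIs per thinned cell were 5.0 (WT) and 7.18 (cKO) for Hmgb1, and 2.35 and 2.79 for Hmgb2. In Cajal-Retzius cells Hmgn1 had 0.23 (0.05 to 0.41) and Hmgb3 0.43 (0.16 to 0.69). In the mix of pericytes and fibroblasts, whose makeup differed between libraries, Hmgb2 had -0.45 (-0.65 to -0.26), and -0.10 after thinning.

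Over GE cells called S, Hmgb2 had a log2 ratio of -0.57 (-0.66 to -0.47) and Hmgn2 -0.62 (-0.71 to -0.53), against -0.11 and -0.30 in those called G2/M. In cells thinned to 5000 UMIs the S values were -1.05 (-1.21 to -0.89) and -0.88 (-1.02 to -0.75). Thinning left out cells under 5000 UMIs, and phases were called anew. This gave 129 WT and 220 cKO GE cells in S, in place of 169 and 259. In intermediate progenitors called G1, Hmgn5 had 0.31 (0.18 to 0.45) and Hmgn2 -0.83 (-0.91 to -0.75).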
